A study of Mus musculus with 6 samples.

Results

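Solute carriers are membrane proteins that move sugars, amino acids, metals, vitamins, ions and metabolites across the plasma membrane and the membranes of mitochondria, lysosomes and the Golgi. Their mRNAs were read in tumour-infiltrating mouse myeloid cells as all rows whose symbol begins with Slc and a digit and whose count reached 10 in at least 3 of the 6 libraries, leaving out Slc2a1, Slc2a3, Slc7a1, Slc7a2 and Slc16a3. Of 23107 genes in the table, 357 carry such a symbol, 219 passed the count rule and 214 were kept as members after the 5 named genes were left out. Members were thus chosen by their counts over all 6 libraries and not by group, so their detection is a description, and only the difference between groups was tested.

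The libraries came from 2 groups of CD11b+ Gr-1+ myeloid cells sorted from tumours in mice of C57BL/6 strain background. In the wtIDH1 group (3 libraries) the tumour carried wild type IDH1, and in the mIDH1 group (3 libraries) it carried mutant IDH1. The normal IDH1 enzyme turns isocitrate into alpha-ketoglutarate, and the enzyme of mutant gliomas turns alpha-ketoglutarate into the related metabolite 2-hydroxyglutarate. The series title places the work in a study of mutant IDH1 glioma stem cells, G-CSF and immunosuppression by myeloid cells. The genotype is that of the tumour, so Idh1 in the sorted host cells is no check of the labels, which state neither the age of the mice nor the tumour line. Whether each replicate was a mouse of its own is not stated either, so the p-values measure the spread between libraries, which may be technical.

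A transporter belongs to a numbered family by sequence, and the family often fixes the class of substrate. Family 25 sits in the inner mitochondrial membrane and exchanges nucleotides, carboxylates, amino acids and iron, family 35 brings nucleotide sugars into the Golgi and endoplasmic reticulum, and families 30 and 39 move zinc out of and into the cytosol. Myeloid cells are known for recycling iron and heme from engulfed cells, for importing cystine, arginine and glutamine, and for peptide and histidine transporters on endolysosomes that take part in innate sensing.

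The libraries held 19728205 to 35093265 counts, so that 3 counts, the upper limit that a count of 0 allows, equal 0.0855 to 0.152 CPM (counts scaled to a common library size). That limit covers counting error only. Itgam, which encodes CD11b, was at 1780 to 2224 CPM in all 6 libraries, and Ly6c2, which encodes part of the Gr-1 antigen, ranged over 120 to 215 CPM in wtIDH1 libraries and 33.8 to 54.3 CPM in mIDH1 libraries (log2 fold change -1.76 ± 0.26, edgeR adjusted p = 0.00184). Of 13 macrophage markers 8 were higher and none lower in mIDH1, with a summed level of 5215 to 6309 CPM in wtIDH1 and 8278 to 15362 CPM in mIDH1. Of 11 neutrophil markers tested 3 were higher and 1 lower (10 above 0, median log2 fold change 1.40), with a summed level of 341 to 426 against 456 to 523 CPM. Of 9 monocyte markers 1 was higher and 3 lower (median -0.71), with sums that overlapped, 6532 to 10618 against 5714 to 8353 CPM. Among tested markers of T and NK cells (11), microglia (10) and glioma and neural cells (8), 1 per list was higher and none lower. Their medians were 0.66, -0.41 and 1.37. T and NK cell markers summed to 315 to 519 against 425 to 798 CPM. Microglia markers summed to 889 to 1323 against 786 to 1536 CPM. Glioma and neural markers summed to 85.4 to 96.4 against 99.4 to 105 CPM. B cell, endothelial and pericyte markers gave no call. Of 20 type I interferon-induced genes 18 were lower and none higher, with a summed level of 5470 to 8006 CPM against 1394 to 3727 CPM. The part of these marker differences in the transporter results was not tested, and in bulk RNA fewer cells of a type and less RNA per cell cannot be told apart.

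Members were detected in nearly the same number in each library, from 196 to 209 of 214 at 10 counts or more. A total of 179 members reached 10 counts in all 6 libraries, 29 in 4 or 5, and 6 in exactly 3. Those 6, just inside the rule, were Slc16a5, Slc22a18, Slc22a21, Slc25a27, Slc36a3 and Slc6a19. Slc25a27, a mitochondrial uncoupling protein, reached 10 counts only in the wtIDH1 libraries, and Slc6a19, a neutral amino acid transporter of intestine and kidney, only in the mIDH1 libraries. Neither passed edgeR's test (Slc25a27 edgeR adjusted p = 0.243, Slc6a19 edgeR adjusted p = 0.14), while DESeq2 called Slc6a19 as higher. Both became members only through the group where they were high, so no group difference is read from either. Just outside the rule, 15 rows reached 10 counts in exactly 2 libraries, 31 in 1 and 92 in none, and 66 of the 138 rows outside were at 0 in all 6 libraries. Among the rows outside was Slc4a1, the anion exchanger of red blood cells, at 0 counts in all 6 libraries. Slc46a2, a transporter of the folate carrier family, had 149 counts in mIDH1 replicate 1, 2 counts in mIDH1 replicate 2 and 0 in the other libraries, so its signal came almost wholly from 1 library.

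Summed over the 214 members, scaled CPM (CPM with edgeR's trimmed-mean scaling of library size) came to 9350, 9538 and 9525 in wtIDH1 replicates 1 to 3 and to 10630, 9971 and 10048 in mIDH1 replicates 1 to 3. Every mIDH1 library lay above every wtIDH1 library (9471 ± 105 against 10217 ± 360, SD, n = 3 each). The mean difference of 745 CPM was smaller than the largest single contributions added together. Slc43a2 added 341 CPM, Slc6a6 added 171, Slc7a11 added 142 and Slc25a5 added 120, while Slc15a3 took away 247 (a mean difference of -247 CPM) and Slc3a2 had a mean difference of -80.5 CPM.

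Per kilobase of exon, the most abundant member was Slc25a5, the adenine nucleotide translocase that exchanges ADP for ATP across the inner mitochondrial membrane, at 183 CPM per kilobase over all 6 libraries. Next came Slc9a3r1 at 133, a scaffold protein named for a transporter it binds, and Slc3a2 at 108, the heavy chain that carries several amino acid transporters to the surface. The zinc importer Slc39a1 followed at 78.7, the taurine transporter Slc6a6 at 70.6 and the phagosomal iron and manganese transporter Slc11a1 at 68.6 CPM per kilobase. The peptide and histidine transporter Slc15a3 stood at 63.7 and the amino acid transporter Slc43a2 at 63.6. From Slc39a1 to Slc43a2 the library values overlapped, so the order among them is within the spread. Of the 20 members highest per kilobase, 5 differed between the groups at an edgeR adjusted p below 0.05, beside 8.17% of all genes tested. The share among genes of similar level was not computed. On average, 52 of 214 members were below 1 CPM per kilobase.

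**Figure D1:**
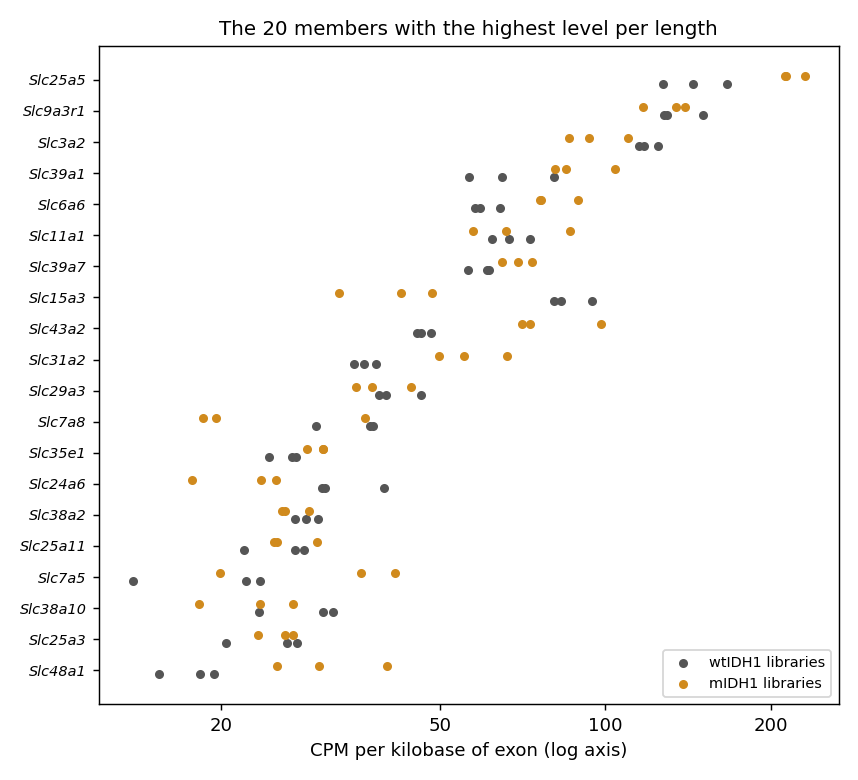
CPM per kilobase of exon (log axis) in each library for the 20 members with the highest mean over all 6 libraries, grey for wtIDH1 and orange for mIDH1. Slc25a5 led at a mean of 183 CPM per kilobase; grey and orange points do not overlap for Slc25a5, Slc15a3, Slc43a2, Slc31a2 and Slc48a1, the 5 that passed the test, nor for a few others that did not.

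In the comparison of mIDH1 with wtIDH1, 17 of the 213 members that could be tested passed an adjusted p of 0.05 in edgeR's quasi-likelihood test with Benjamini-Hochberg adjustment over 12950 genes, 10 of them higher and 7 lower. That is 7.98% of the members, against 8.17% of all genes tested. By direction, 4.69% of members were higher against 2.78% of all genes, and 3.29% were lower against 5.39%. The combined share is near the background and is no result about the members as a whole. One member, Slc12a8, was too low to be tested.

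All 17 called members had groups that did not overlap. Over the members tested, groups did not overlap in 75 (35.2%, against 28.9% of all genes), with mIDH1 higher in 50 (23.5% against 14%) and lower in 25 (11.7% against 14.9%). The median log2 fold change of the members was 0.17, with 132 of 213 above 0 (62%), beside a median of 0.06 with 53.4% above 0 over all genes. Scaling by library totals alone moved both medians up, to 0.25 for members and 0.13 for all genes, and the split of called members to 14 higher (against 3.75% of all genes) and 6 lower (against 4.58%). DESeq2 called 30 of 214 members (against 10.4% of all genes), 22 higher (10.3% against 4.39%) and 8 lower (3.74% against 6.04%), and these included all 17. Its background was all 16288 genes with any count, including genes too low for the count rule that members had passed. The DESeq2 shares of members and of all genes are therefore not on like terms, and no excess is read from them.

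Among the 179 members at 10 counts or more in all 6 libraries, 16 were called (8.94%, against 9.08% of all genes so detected), 9 higher and 7 lower. The total varied with the library left out: without wtIDH1 replicate 2, 6 members passed (2.8%, against 2.47% of all genes), without wtIDH1 replicate 3, 8 passed (3.74% against 2.66%), and without wtIDH1 replicate 1 or mIDH1 replicate 2, 10 passed (4.67% in each, against 4.87% and 4.17%). Without mIDH1 replicate 1 or 3, 16 passed (7.48% in each, against 7.64% and 7.65%), of which 10 and 13 were among the 17.

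**Figure D2:**
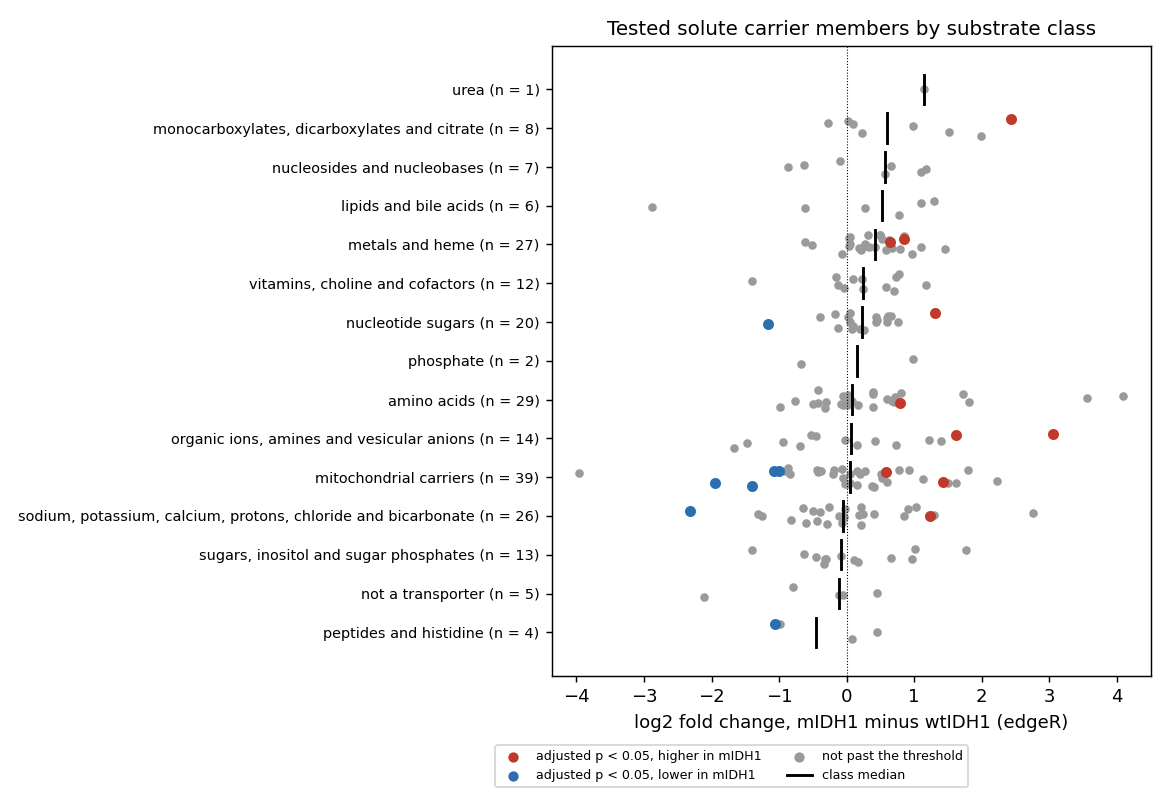
Log2 fold change (mIDH1 minus wtIDH1, edgeR) of each of the 213 tested members, 1 point per gene, in 15 classes ordered by their median (black bar); red and blue points passed an adjusted p of 0.05. Of 27 metal and heme members 24 lie above 0, while the 39 mitochondrial carriers spread on both sides and hold 4 of the 7 blue points.

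In all, 6 called members passed under every scaling, filter and tool tried and with any 1 library left out: Slc25a37, Slc25a22, Slc35b2 and Slc15a3, all lower in mIDH1, and Slc6a8 and Slc13a3, both higher. These 6 genes are protein coding and their values count reads over exons. On GRCm38 they lie at chr14:69241848-69285112 (Slc25a37, minus strand), chr7:141429744-141437892 (Slc25a22, minus strand), chr17:45563874-45567671 (Slc35b2, plus strand), chr19:10839727-10859362 (Slc15a3, plus strand), chrX:73673150-73682502 (Slc6a8, plus strand) and chr2:165405028-165473230 (Slc13a3, minus strand).

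Promoter sequences of 3 of the 6 are in the RefSeq table for GRCm38.p6 and are shown because these members differed most steadily between the groups, 1 upward and 2 downward. Each is written 5′ to 3′ on the gene's strand, from 250 bases before a RefSeq start up to the first base in any annotated exon. Capitals mark matches to 3 motifs, searched on both strands of the 250 bases: the core of the interferon-stimulated response element (GAAA, 2 bases of any kind, GAAA), the E-box (CACGTG) and the core of the antioxidant response element (TGACNNNGC).
Slc13a3, chr2:165473231-165473447, minus strand: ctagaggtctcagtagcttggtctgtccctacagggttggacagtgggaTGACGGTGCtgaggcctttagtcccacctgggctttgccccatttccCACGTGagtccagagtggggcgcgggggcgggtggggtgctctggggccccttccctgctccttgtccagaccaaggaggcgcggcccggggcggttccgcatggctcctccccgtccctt
Slc25a22, chr7:141435398-141435625, minus strand: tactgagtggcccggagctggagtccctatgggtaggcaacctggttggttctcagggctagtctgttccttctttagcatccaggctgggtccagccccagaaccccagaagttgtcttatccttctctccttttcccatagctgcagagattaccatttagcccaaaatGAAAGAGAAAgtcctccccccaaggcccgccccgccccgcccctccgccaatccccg
Slc35b2, chr17:45563686-45563873, plus strand: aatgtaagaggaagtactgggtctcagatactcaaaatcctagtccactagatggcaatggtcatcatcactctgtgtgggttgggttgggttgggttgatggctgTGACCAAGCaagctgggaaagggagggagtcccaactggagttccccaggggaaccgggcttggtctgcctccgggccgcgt

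The Slc13a3 window held 1 E-box and 1 antioxidant core, the Slc25a22 window 1 interferon core, and the Slc35b2 window 1 antioxidant core. Over 32851 promoters in the same table, 2.98% held the interferon core, 6.02% the E-box and 10.2% the antioxidant core. Over 212 promoters of members the shares were 1.42%, 12.7% and 16%. Slc25a22 has 2 further windows in the table, which were searched and held none of the motifs; their upstream ends lie in annotated exons and they are not printed. A match here is a description of letters in a window, not a binding site.

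**Figure D3:**
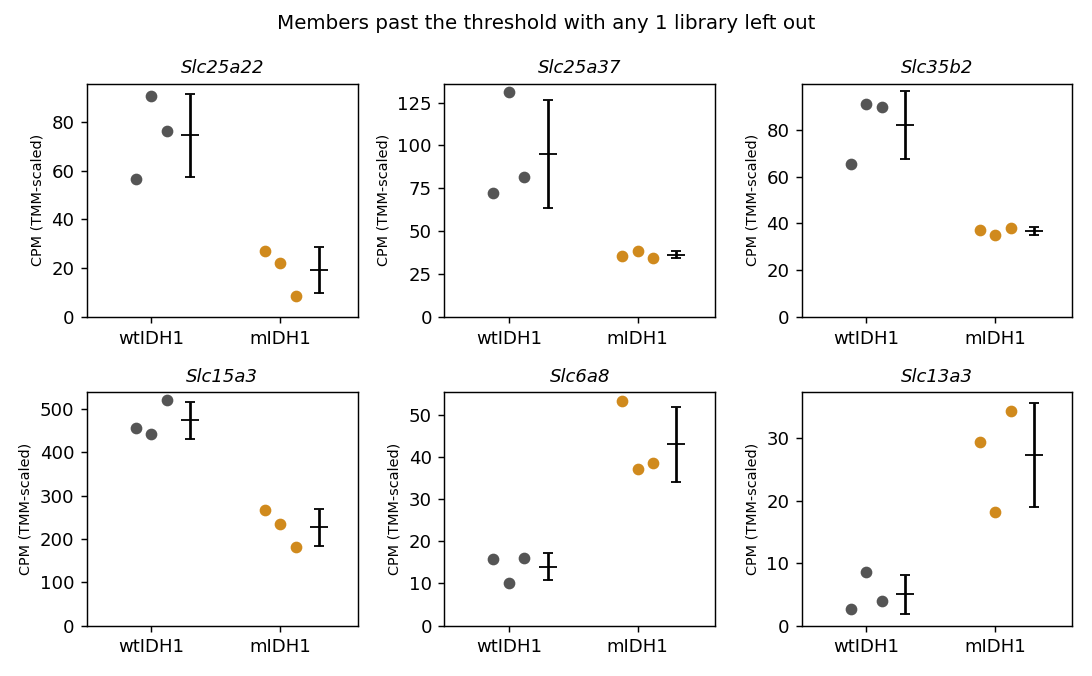
Scaled CPM in each library (points) with the group mean and SD (black, n = 3) for the 6 members that passed an adjusted p of 0.05 in every setting tried. In each panel every mIDH1 point lies on 1 side of every wtIDH1 point, from Slc25a22 (74.4 against 19.3 CPM) to Slc13a3 (5.03 against 27.3 CPM).

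Mitochondrial carriers, the largest class with 39 members, split in direction: 4 were lower in mIDH1 and 2 higher, their median log2 fold change was 0.05, and 22 of 39 lay above 0. Over all genes 5.39% were lower and 2.78% higher. Beside these shares, the few calls in this class and in those below are no result about a class. The lower ones included an importer of iron, Slc25a37, a glutamate carrier, Slc25a22, and the glycine carrier needed for heme synthesis, Slc25a38. The higher ones were Slc25a5 and Slc25a16, a carrier linked to coenzyme A. With 1 library left out, 2 or 3 of the 4 lower and 0 or 1 of the 2 higher carriers still passed (none of the higher ones without replicate 2 or 3 of wtIDH1 or replicate 1 or 2 of mIDH1).

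Slc25a37, mitoferrin 1, was at 72.4, 131 and 81.7 CPM in wtIDH1 replicates 1 to 3 and at 35.5, 38.6 and 34.6 CPM in mIDH1 replicates 1 to 3. The 3 mIDH1 values lay close together and below all wtIDH1 values, of which replicate 2 was the highest. The log2 fold change was -1.39 ± 0.24 (SE; edgeR adjusted p = 0.00432). Its paralog Slc25a28, mitoferrin 2, was at 37.3, 64.1 and 54.3 CPM against 32.99, 27.2 and 22.8 CPM and missed the threshold (edgeR adjusted p = 0.0519). Slc25a28 did pass with no filter, with a stricter filter, with DESeq2, and without wtIDH1 replicate 1 or mIDH1 replicate 1. Slc25a38 stood at 28.9, 24.5 and 26.1 CPM against 11.3, 13.4 and 12.9 CPM, a log2 fold change of -1.08 (edgeR adjusted p = 0.0379) that did not pass with any 1 library left out (adjusted p up to 0.121). Immature red blood cells also express these iron and heme carriers. Of 11 erythroid markers measured, 5 were at 0 in all 6 libraries, the hemoglobin genes Hba-a1, Hba-a2, Hbb-b1 and Hbb-b2 with Klf1, and most of the signal of the list came from Ermap (3.53 to 12.5 CPM in wtIDH1, 3.26 to 11.8 CPM in mIDH1). The hemoglobin row Beta-s, matched to Hbb-bs, held 1 count in all. How the counting treated reads shared by hemoglobin gene copies is not known, so a 0 there may not mean absent RNA. An erythroid part in the carrier values was not tested. Without Ermap the list summed to 0.0924, 0.0379 and 0.0504 CPM in wtIDH1 replicates 1 to 3 and to 4.65, 1.80 and 0.428 CPM in mIDH1 replicates 1 to 3, where replicate 1 held Alas2, the erythroid enzyme of heme synthesis, at 4.22 CPM.

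Slc25a22, which imports glutamate into mitochondria, was at 56.5, 90.6 and 76.3 CPM in the wtIDH1 libraries and at 27.1, 21.98 and 8.70 CPM in mIDH1, with the lowest value in mIDH1 replicate 3. Its log2 fold change of -1.95 ± 0.36 (edgeR adjusted p = 0.0066) was the lowest of the called carriers. Slc25a25, a calcium-regulated carrier of ATP-Mg and phosphate, was at 54.1, 66.3 and 65.3 CPM against 28.5, 38.8 and 25.2 CPM (log2 fold change -1.0, edgeR adjusted p = 0.0207), and it missed the threshold without wtIDH1 replicate 2 or 3 (adjusted p up to 0.0983).

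Slc25a5 was at 274, 210 and 238 CPM in the wtIDH1 libraries and 380, 352 and 350 CPM in the mIDH1 libraries, a log2 fold change of 0.58 (edgeR adjusted p = 0.0466). All mIDH1 libraries exceeded all wtIDH1 libraries, but with 1 library left out the adjusted p reached 0.218 and the call held in 1 of 6 cases. Its paralog Slc25a4, the translocase of heart and muscle, was at 25.8, 26.4 and 11.3 CPM against 44.7, 35.08 and 59.7 CPM (log2 fold change 1.13, edgeR adjusted p = 0.0565). Reads shared between such related genes could have been split between them by the counting, so both values are uncertain to an extent that was not measured. Slc25a16 was at 14.1, 8.61 and 6.15 CPM against 26.6, 21.7 and 29.5 CPM (log2 fold change 1.43, edgeR adjusted p = 0.0312), and passed with 1 library left out in 1 of 6 cases.

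Among mitochondrial carriers, Slc25a1, Slc25a10 and Slc25a11, which move metabolites close to the IDH1 reaction, did not pass the test. The citrate carrier Slc25a1 averaged 22.98 ± 6.77 CPM over wtIDH1 and 22.6 ± 1.34 CPM over mIDH1 libraries (SD, n = 3; log2 fold change -0.02 ± 0.30), and its sign changed under other scalings. The dicarboxylate carrier Slc25a10 was at 16.2 ± 3.91 against 17.95 ± 8.73 CPM (0.15 ± 0.39 on the log2 scale). The oxoglutarate carrier Slc25a11, which exchanges alpha-ketoglutarate for malate, was at 54.8 ± 7.20 against 56.7 ± 5.84 CPM (0.05 ± 0.20). Standard errors of 0.20 to 0.39 on the log2 scale leave room for moderate differences in either direction.

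**Figure D4:**
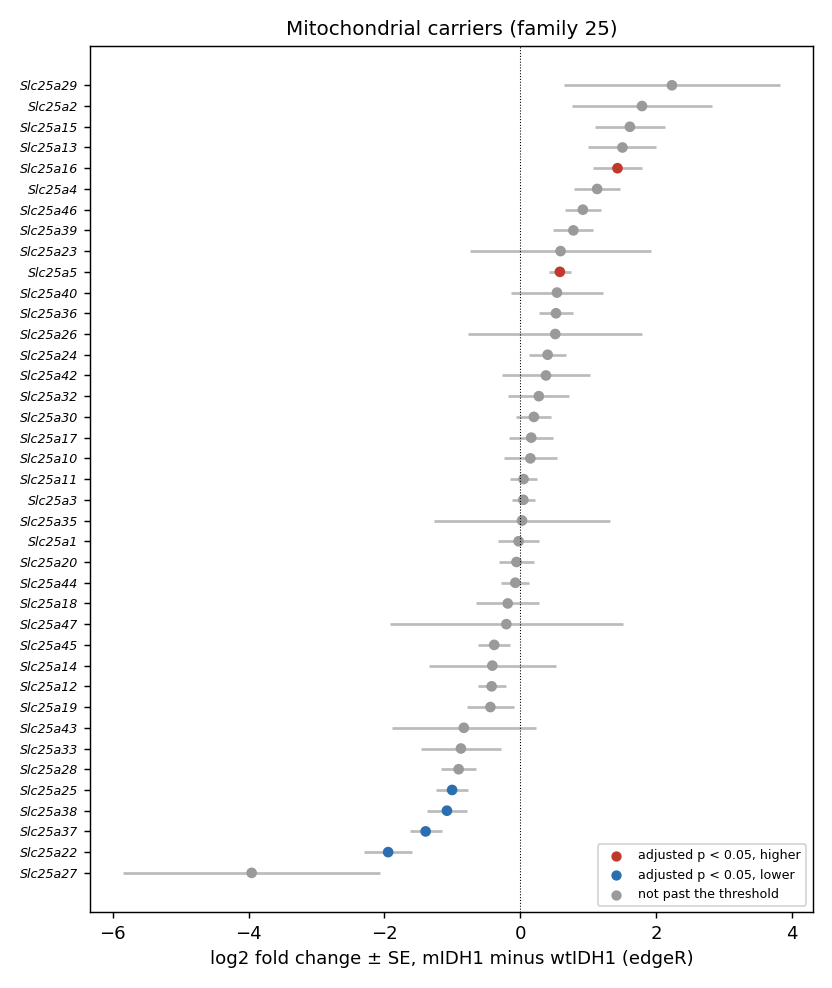
Log2 fold change ± SE (mIDH1 minus wtIDH1, edgeR) of the 39 mitochondrial carriers, ordered by size; blue and red points passed an adjusted p of 0.05. The called carriers are Slc25a22, Slc25a37, Slc25a38 and Slc25a25 on the lower side and Slc25a5 and Slc25a16 on the higher side; Slc25a27, at the bottom, has a wide error and was not called.

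Carboxylate transporters of the plasma membrane gave 1 call among 8 members. Slc13a3, which brings succinate, alpha-ketoglutarate and other dicarboxylates into the cell together with sodium, was at 2.59, 8.57 and 3.93 CPM in wtIDH1 and at 29.4, 18.2 and 34.4 CPM in mIDH1. The lowest mIDH1 library stood above the highest wtIDH1 library, and the ratio of the means was 5.43. Its log2 fold change was 2.43 ± 0.47 (edgeR adjusted p = 0.00813, up to 0.0492 with 1 library left out). The lactate and pyruvate transporter Slc16a1 was at 23.6 ± 8.39 against 23.8 ± 6.38 CPM and its relative Slc16a7 at 9.34 ± 2.83 against 10.9 ± 4.08 CPM (SD, n = 3), neither past the threshold. Slc16a6 was at 42.2 ± 2.48 against 34.8 ± 5.67 CPM (edgeR adjusted p = 0.533), and 21.5% of its exon bases also lie in exons of Amz2.

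Amino acid transporters numbered 29, of which 1 was higher and none lower, with 18 of 29 above 0 and a median log2 fold change of 0.08. Slc43a2, LAT4, carries large neutral amino acids such as leucine and phenylalanine and was at 464, 484 and 456 CPM in wtIDH1 and at 732, 708 and 987 CPM in mIDH1. The wtIDH1 libraries were close together, and mIDH1 replicate 3 was the highest. Its log2 fold change was 0.79 ± 0.17 (edgeR adjusted p = 0.0162), and it missed the threshold when any 1 wtIDH1 library was left out (adjusted p up to 0.0882).

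Slc7a11, the cystine and glutamate exchanger that feeds glutathione synthesis, was at 146, 166 and 252 CPM against 433, 312 and 246 CPM. The groups overlapped at wtIDH1 replicate 3 and mIDH1 replicate 3, and the log2 fold change of 0.81 ± 0.24 missed the threshold (edgeR adjusted p = 0.059). Slc7a11 passed in 8 of 14 other settings, among them DESeq2 (adjusted p = 0.0163) and limma (0.0394). Slc3a2, the heavy chain shared by Slc7a11 and Slc7a5, had a log2 fold change of -0.31 ± 0.16 (edgeR adjusted p = 0.294), at 441, 415 and 406 CPM against 388, 329 and 303 CPM. Slc7a5, LAT1, was at 73.6 ± 19.6 against 120 ± 41.4 CPM (SD, n = 3; edgeR adjusted p = 0.14). The glutamine transporters Slc1a5 (73.6, 53.8 and 61.7 CPM against 52.7, 48.7 and 38.9 CPM), Slc38a1 (150 ± 14.1 against 154 ± 7.16 CPM) and Slc38a2 (253 ± 12.2 against 238 ± 15.3 CPM) did not pass the test.

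Peptide and histidine transporters had 4 members, 1 of them lower. Slc15a3, which exports histidine and bacterial peptide fragments from endolysosomes, was at 456, 443 and 521 CPM in wtIDH1 and at 266, 233 and 180 CPM in mIDH1. The groups were far apart, and the log2 fold change was -1.06 ± 0.18 (edgeR adjusted p = 0.0044). Of its 5491 exon bases, 1541 (28.1%) also lie in exons of Tmem132a on the opposite strand. Tmem132a fell as well, from 262 ± 84.0 to 85.6 ± 13.3 CPM (SD, n = 3; log2 fold change -1.61, edgeR adjusted p = 0.00151). The library kit does not mark strand, and how the counting assigned reads from the shared bases to the genes is not known. Among other called members, the opposite strand holds exons of Gm45606 over 9.18% of the exon bases of Slc43a2, of Gm31748 over 6.33% and Gm27223 over 1.53% of those of Slc25a37, of Naif1 over 4.82% of those of Slc25a25, of Gm29261 over 2.12% of those of Slc18a2 and of Hdac7 over 1.05% of those of Slc48a1. Slc15a3 is also known as an interferon-induced gene, and the fall of 18 of 20 genes of that list stands beside it; its part was not tested. Slc15a4, its endolysosomal relative, was at 60.4 ± 13.5 against 63.9 ± 19.4 CPM (edgeR adjusted p = 0.892).

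Transporters of organic ions, amines and vesicular anions had 14 members, 2 of them higher and none lower, with 7 on each side of 0. Slc6a8, the creatine transporter, was at 15.8, 10.2 and 15.9 CPM in wtIDH1 and at 53.1, 37.2 and 38.5 CPM in mIDH1, a ratio of means of 3.08. No wtIDH1 library reached the lowest mIDH1 library, and the log2 fold change was 1.62 ± 0.29 (edgeR adjusted p = 0.00527). Slc18a2, which loads monoamines such as histamine and serotonin into vesicles, was low in both groups, at 0.740, 1.33 and 0.202 CPM against 6.52, 5.43 and 7.09 CPM. Its log2 fold change of 3.05 ± 0.87 was the highest of the called members, but the call was at the threshold (edgeR adjusted p = 0.0497) and did not hold with any 1 library left out. The taurine transporter Slc6a6 was at 545, 490 and 501 CPM against 647, 645 and 755 CPM, with groups apart but an adjusted p of 0.134 (edgeR, log2 fold change 0.41 ± 0.16).

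Metal and heme transporters leaned one way without many calls. Of 27 members, 24 had a log2 fold change above 0, the median was 0.42, groups did not overlap in 14, and 2 were higher and none lower. Over all genes 53.4% were above 0, the median was 0.06 and groups did not overlap in 28.9%. The leaning depends on how classes were drawn. The mitoferrins Slc25a37 and Slc25a28 and the glycine carrier for heme synthesis Slc25a38 were counted with the mitochondrial carriers. Their log2 fold changes were -1.39, -0.91 and -1.08. In the zinc exporter family Slc30, 6 of 7 members lay above 0 (median 0.52), and in the zinc importer family Slc39, 9 of 11 (median 0.28), with no call in either. Each of the calls in the class held in 1 of 6 fits with a library left out, Slc48a1 without mIDH1 replicate 1 and Slc31a2 without mIDH1 replicate 3, and the leaning of the class itself has no test here.

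Slc48a1, HRG1, which carries heme from the phagolysosome to the cytosol of macrophages that clear red blood cells, was at 50.4, 53.4 and 42.5 CPM against 69.5, 83.0 and 110 CPM. The groups did not overlap (log2 fold change 0.84 ± 0.21, edgeR adjusted p = 0.0305, up to 0.14 with 1 library left out). Slc31a2, a copper transporter of late endosomes and lysosomes, was at 70.9, 73.9 and 77.7 CPM against 135, 101 and 113 CPM. Its wtIDH1 values were within a narrow range below the mIDH1 values (log2 fold change 0.65 ± 0.18, edgeR adjusted p = 0.0419, up to 0.155 with 1 library left out). The macrophage marker sum was higher in every mIDH1 library, as given above, and its part in these values was not tested.

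Other iron and zinc genes of this class did not pass. Slc11a1, NRAMP1, which pumps iron and manganese out of the phagosome, was at 231, 270 and 248 CPM against 320, 213 and 244 CPM, with overlapping groups. The only known cellular iron exporter, ferroportin or Slc40a1, was at 6.39 ± 0.86 against 10.2 ± 2.87 CPM (SD, n = 3; edgeR adjusted p = 0.433), and the endosomal iron transporter Slc11a2 at 24.4 ± 7.98 against 27.6 ± 6.00 CPM. Slc39a1 had groups that did not overlap, at 154, 134 and 191 CPM against 192, 201 and 247 CPM (edgeR adjusted p = 0.2). The zinc and manganese importer Slc39a8 ranged from 3.32 to 22.02 CPM within the mIDH1 group, and its sign changed with the tool and with the library left out.

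Among 20 transporters of nucleotide sugars and their relatives, 16 had a log2 fold change above 0 (median 0.23), 1 was higher and 1 lower. Slc35b2, which brings the sulfate donor PAPS into the Golgi for the sulfation of glycans and proteins, was at 65.5, 91.3 and 90.0 CPM in the wtIDH1 libraries and 37.3, 34.99 and 38.05 CPM in mIDH1. The mIDH1 libraries lay close together, far below the lowest wtIDH1 library (log2 fold change -1.16 ± 0.21, edgeR adjusted p = 0.00519). Slc35a5 was at 7.86, 14.8 and 12.7 CPM against 31.7, 27.5 and 28.7 CPM (log2 fold change 1.31 ± 0.32, edgeR adjusted p = 0.0247), and it held in 1 of 6 cases with a library left out. The highest member per kilobase in the class, Slc35e1, was at 117 ± 6.92 against 134 ± 5.04 CPM, and the GDP-fucose transporter Slc35c1 at 74.8 ± 20.2 against 77.7 ± 11.2 CPM (SD, n = 3); neither passed.

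Carriers of sodium, potassium, calcium, protons, chloride and bicarbonate had 26 tested members, 1 higher and 1 lower, with 11 above 0. Slc9a5, a sodium-proton exchanger of endosomes and plasma membrane, was at 14.1, 12.1 and 11.1 CPM against 1.81, 3.91 and 1.71 CPM. Each mIDH1 library was below each wtIDH1 library (log2 fold change -2.32 ± 0.54, edgeR adjusted p = 0.0207), and the adjusted p reached 0.086 with 1 library left out. Slc12a2, the sodium-potassium-chloride cotransporter NKCC1, which sets cell volume and chloride, was at 26.6, 17.2 and 13.3 CPM against 50.7, 57.7 and 26.6 CPM. The lowest mIDH1 library lay next to the highest wtIDH1 library (log2 fold change 1.24 ± 0.34, edgeR adjusted p = 0.0428, up to 0.17 with 1 library left out). The mitochondrial sodium-calcium-lithium exchanger Slc24a6 was at 106, 137 and 107 CPM against 81.9, 87.2 and 61.3 CPM and missed the threshold (edgeR adjusted p = 0.0813).

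In the remaining classes no member passed edgeR's test. At an unadjusted p below 0.05 they held 2 sugar, 2 phosphate, 3 lipid and bile acid and 1 vitamin transporter and 1 gene that shares only the name. Over all genes tested 22.2% lay below that edgeR p, and over all members 24.4%, so these counts are no result about a class. DESeq2 called Slc2a9, Slc20a2 and the bile acid family member Slc10a7, limma only the last. With edgeR, Slc2a9 passed under upper-quartile factors and library totals, Slc10a7 with no filter and without wtIDH1 replicate 3, and Slc46a3 without mIDH1 replicate 3. The 13 sugar, inositol and sugar phosphate transporters had 6 above 0, and Slc2a9, a urate transporter of the glucose transporter family, came closest at 16.8, 12.2 and 12.1 CPM against 22.1, 31.4 and 29.3 CPM (edgeR adjusted p = 0.0576). The endolysosomal hexose transporter Slc2a6 was at 28.9 ± 3.30 against 18.6 ± 7.86 CPM and the sugar phosphate transporter Slc37a2 at 105 ± 3.76 against 98.8 ± 15.9 CPM. Both phosphate importers had groups that did not overlap, in opposite directions: Slc20a1 at 65.9 ± 12.8 against 41.3 ± 13.7 CPM (edgeR adjusted p = 0.137) and Slc20a2 at 11.3 ± 0.85 against 22.5 ± 5.99 CPM (edgeR adjusted p = 0.0895).

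Nucleoside transporters (7 members) had 4 above 0. The lysosomal nucleoside transporter Slc29a3 was the most abundant of them per kilobase, at 226, 233 and 270 CPM against 258, 206 and 219 CPM. The groups overlapped, as they did for the plasma membrane carriers Slc29a1 (26.9 ± 10.5 against 42.6 ± 11.9 CPM) and Slc28a2 (42.3 ± 10.6 against 62.9 ± 20.1 CPM; SD, n = 3). Vitamin, choline and cofactor transporters (12 members) had 8 above 0. Among them Slc46a3, a lysosomal transporter, was at 8.42 ± 0.70 against 18.9 ± 8.20 CPM (edgeR adjusted p = 0.1), the vitamin C transporter Slc23a2 at 98.3 ± 6.36 against 116 ± 8.86 CPM, and the choline transporter-like protein Slc44a2 at 137 ± 29.4 against 133 ± 15.2 CPM.

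Lipid and bile acid transporters (6 members) had 4 above 0, with groups that did not overlap in 4 (against 28.9% of all genes). The fatty acid transport protein Slc27a4 was at 45.2 ± 6.00 against 29.6 ± 1.26 CPM (SD, n = 3; edgeR adjusted p = 0.122). The urea transporter Slc14a1 was low in both groups, at 2.91 ± 1.57 against 6.46 ± 2.03 CPM. The 5 members that share only the name, among them the scaffold Slc9a3r1 (262 ± 24.4 against 251 ± 23.02 CPM) and Slc7a6os (24.2 ± 1.73 against 14.04 ± 4.12 CPM), gave no call.

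Of 46 tested solute carriers that go by other symbols, such as the uncoupling and pyruvate carriers, 1 was higher and none lower by edgeR, against 2.78% and 5.39% of all genes, and their median log2 fold change was 0.07. That gene was Nipa2, a magnesium transporter, at 29.6 ± 4.59 against 54.7 ± 10.7 CPM (SD, n = 3; log2 fold change 0.89, edgeR adjusted p = 0.0394). Of 9 tested partner proteins of transporters, 2 were higher. Embigin (Emb), a chaperone of monocarboxylate transporters, was at 230, 238 and 269 CPM in the wtIDH1 libraries and 421, 457 and 442 CPM in the mIDH1 libraries (log2 fold change 0.84 ± 0.16, edgeR adjusted p = 0.00703). Wnk1, a kinase that controls chloride cotransporters such as Slc12a2, was at 1024 ± 77.9 against 1641 ± 38.3 CPM (log2 fold change 0.68, edgeR adjusted p = 0.0183). The groups were apart for both genes. Basigin (Bsg), the main chaperone of Slc16a1, was at 273 ± 6.69 against 231 ± 51.5 CPM (edgeR adjusted p = 0.487). Another listed partner, Nptn, was at 112 ± 4.64 against 164 ± 8.45 CPM and missed the threshold (edgeR adjusted p = 0.0512), and it passed in 4 of 14 other settings. The 3 calls became 0 without wtIDH1 replicate 2 and 1 without replicate 1 or 3 of wtIDH1 or replicate 2 of mIDH1.

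**Figure D5:**
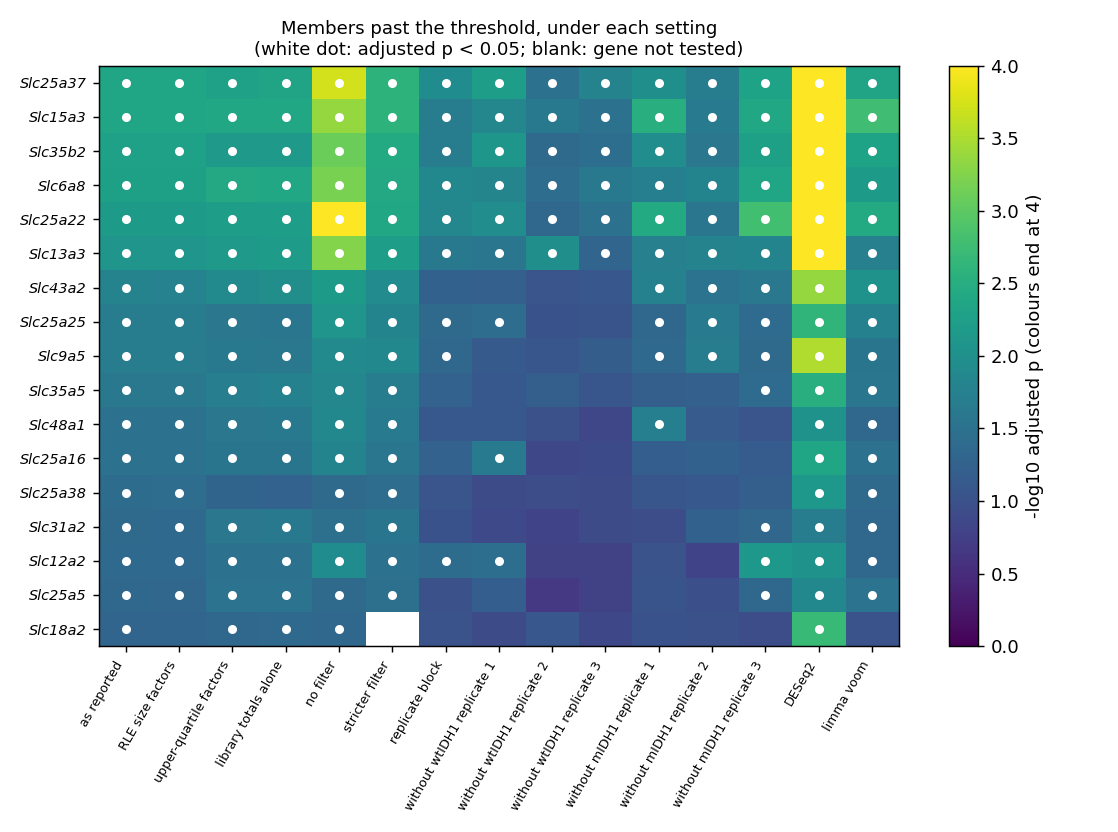
Adjusted p (colour, as -log10, colours ending at 4) of the 17 called members under the reported setting and 14 others, with a white dot where it is below 0.05 and a blank where the gene was not tested. The upper 6 rows carry a dot in every column, while most of the lower rows lose it when a wtIDH1 library is left out.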

How the data were processed

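RNA sequencing of 6 libraries was deposited by the authors as a table of estimated counts per gene, of which 1.31% to 1.61% of values per library are not whole, per the file's values. The labels describe polyA-selected TruSeq libraries, a kit that does not mark strand. The submitters' processing notes name the build mm10 and, without roles, HTSeq, Cuffdiff 2.1.1, Cufflinks, Bowtie2 2.2.1, TopHat2 2.0.13 and FastQC. Estimated counts were rounded here and fitted for all genes with edgeR 4.0.16 (R 4.3.3): filterByExpr, TMM scaling, group as the only term, quasi-likelihood test, Benjamini-Hochberg adjustment, threshold 0.05. CPM printed are TMM-scaled, and CPM per kilobase divide by the exon length of GENCODE M21. The scripts were tested on simulated data. Members, substrate classes and gene lists were chosen with earlier results of these data known. Genes were named by role, and by rule: the 12 largest called changes each way at a mean of 5 CPM or more with groups apart, up to 3 smallest p among called and 2 highest levels per class, and up to 4 smallest p over the other carriers and partners together. Slc25a4, Slc25a28, Slc2a9, Slc25a27, Slc6a19 and the other members just inside the count rule were added after their values were seen. Alternatives were other scalings, filters, DESeq2 1.42.0, limma 3.58.1, a replicate block and leaving out each library. 1 listed erythroid marker is not reported here.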

Additional observations from a re-analysis of the deposited data

How the results depend on the processing

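Of 867 values for 62 named genes under 14 other settings, 742 kept direction and side of the threshold, 73 fell short of it, 15 newly passed it and 37 changed sign, none of these for a called gene. Members higher (10) became 3 with the replicate block, 22 with DESeq2 and 2 to 10 with 1 library left out; members lower (7) became 4 to 9. Over all genes, 360 higher became 156 with the block, 715 with DESeq2 and 78 to 365 with a library left out, and 698 lower became 429 with the block and 256 to 707. Other carriers and partners higher (3) became 5 with upper-quartile factors, 6 with library totals alone, 1 with the block, 6 with DESeq2 and 0 to 3; lower (0) became 1 without a filter, 1 with a stricter filter, 2 with DESeq2 and 0 to 1. The cause was not tested. Same-numbered libraries of the groups did not deviate together (correlations -0.03, 0.03 and -0.05), so the block rests on a number only. The log2 fold change changed sign for Slc25a1 (upper quartile 0.039, totals 0.059, block 0.020, limma 0.0060), Slc39a8 (block -0.33, limma -0.48), Slc44a2 (upper quartile 0.016, totals 0.032) and Slc9a3r1 (totals 0.014). With 1 library left out it changed sign for Slc11a1 (-0.13 to 0.18), Slc11a2 (-0.074 to 0.38), Slc15a4 (-0.19 to 0.27), Slc38a1 (-0.032 to 0.11), Slc16a1 (-0.26 to 0.22), Slc16a7 (-0.13 to 0.42), Slc37a2 (-0.17 to 0.041), Slc39a8 (-0.88 to 0.49), Slc25a1 (-0.25 to 0.15), Slc25a10 (-0.31 to 0.39), Slc25a11 (-0.058 to 0.11), Slc9a3r1 (-0.12 to 0.013), Slc35c1 (-0.11 to 0.28) and Slc44a2 (-0.15 to 0.14). Depth limits members near 1 CPM, where a few counts decide a value.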
